A study of Mus musculus with 3 samples.

Results

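Macrophages of the mouse heart were compared with Kupffer cells, which line the sinusoids of the liver, across all genes found in either RNA-seq library. For each gene symbol 1 transcript of the deposited file was kept, the longest coding RefSeq transcript or, without one, the longest noncoding transcript. A gene entered the comparison when its level was at least 1 RPKM, which scales reads by exon length in kilobases and to a library total of 1000000, in the heart or in the liver library. This left 10535 of 24453 symbols. Just inside this limit 179 genes reached 1 to 1.1 RPKM in the higher library, and just outside it 179 reached 0.9 to under 1 RPKM.

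Both libraries came from C57BL/6 mice aged 8 weeks, in the steady state and with no agent or mutation named, and the cells were sorted as CD11b+, F4/80+, Ly6G- and Ly6C-. Total RNA of the sorted cells was amplified with a low-input cDNA kit. How many animals gave cells is not given in the sources used here. A library of renal macrophages, prepared in the same way, is given as a level beside some genes and enters no count. Each tissue has 1 library, so no difference has a replicate check, nothing was tested, and every statement describes these 2 libraries. Intervals are exact 95% Poisson intervals of reads, or for ratios exact Clopper-Pearson intervals, and cover counting error only, since copies made by PCR were not told apart.

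Tissue macrophages share a program that rests on the receptor for CSF1 and the factor PU.1, and each tissue adds its own layer. Kupffer cells clear particles, bacteria and aged red cells from portal blood, and their identity depends on the nuclear receptor LXR alpha together with Notch and BMP signals from the sinusoid wall. Cardiac macrophages lie between cardiomyocytes, vessels and fibroblasts. They take up dying cells and mitochondria, take part in conduction and supply growth factors to the muscle.

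Depth was 14460684 reads for the heart library and 16743426 for the liver library over all transcripts, recovered from the steps of low values. These totals count a read once for each transcript that holds it, so they are not the number of reads sequenced. With 1 transcript per gene the sums were 8751978 and 10373696 reads. In heart 9061 genes and in liver 9201 genes reached 1 RPKM. Differences were taken as heart minus liver on log2(RPKM + 1), and 2 units or more, 4-fold on this scale, is called higher below. On this rule 612 genes (5.81% of those compared) were higher in the heart and 819 (7.77%) were higher in the liver. The median difference over all genes was -0.26, and 5613 genes (53.3%) lay within 1 unit. Heart genes thus made up 42.8% of all genes past the fold, but 53.2% when each library was scaled to TPM, a sum of 1000000 over genes after division by length, and 56.9% when it was scaled by the median ratio. These scalings shifted the median of all genes by 0.15 and 0.30, so a family's median is read below against that of all genes and not against 0.

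**Figure D1:**
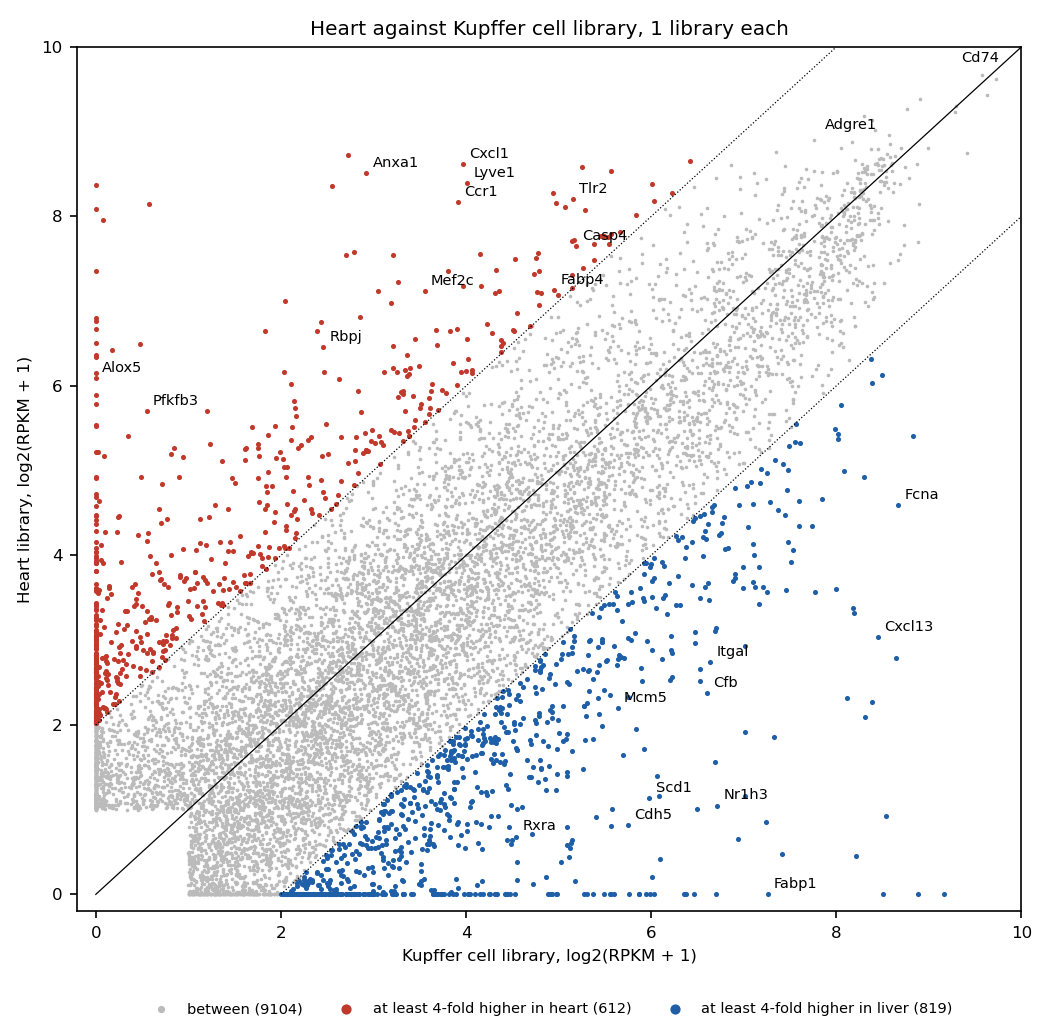
Level of each of the 10535 genes in the heart library (vertical axis) against the Kupffer cell library (horizontal axis), both as log2(RPKM + 1), with 1 point per gene. The solid line marks equal levels and the dotted lines a 4-fold difference. The 612 red points are higher in heart and the 819 blue points higher in liver, and genes shared by macrophages such as Adgre1 and Cd74 lie near the solid line.

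Genes past the fold reached from weakly to densely read ones. Of the heart genes 553 were protein coding, 363 had at least 10 RPKM in the heart library, 71 at least 100 RPKM, and 170 had no read in the liver library. Of the liver genes 770 were protein coding, 545 had at least 10 RPKM, 86 at least 100 RPKM, and 162 had no read in the heart library. The median exon length was 2496 bp for the heart genes, 1892 bp for the liver genes and 2633 bp for all genes compared. The difference itself moved with exon length, from a median of -0.54 for exons of 1000 to 2000 bp to 0.05 for 4000 to 8000 bp and 0.16 above that. The median absolute difference was lower among densely read genes: it was 1.04 where 1 to 2 reads fell on each bp, and it was 0.37 for the 60 densest genes, with 6 or more, in a file made with a limit on tags counted per position. Of these 60 genes 15% were past the fold, against 6.97% of the genes with under 0.1 reads per bp. The share was 18.2% from 0.1 to 0.5 reads per bp, 20.3% from 0.5 to 1 and 19.7% from 1 to 2. It was 14.8% from 2 to 4 and 12.5% from 4 to 6. The part of length and of this limit in single differences was not tested.

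**Figure D2:**
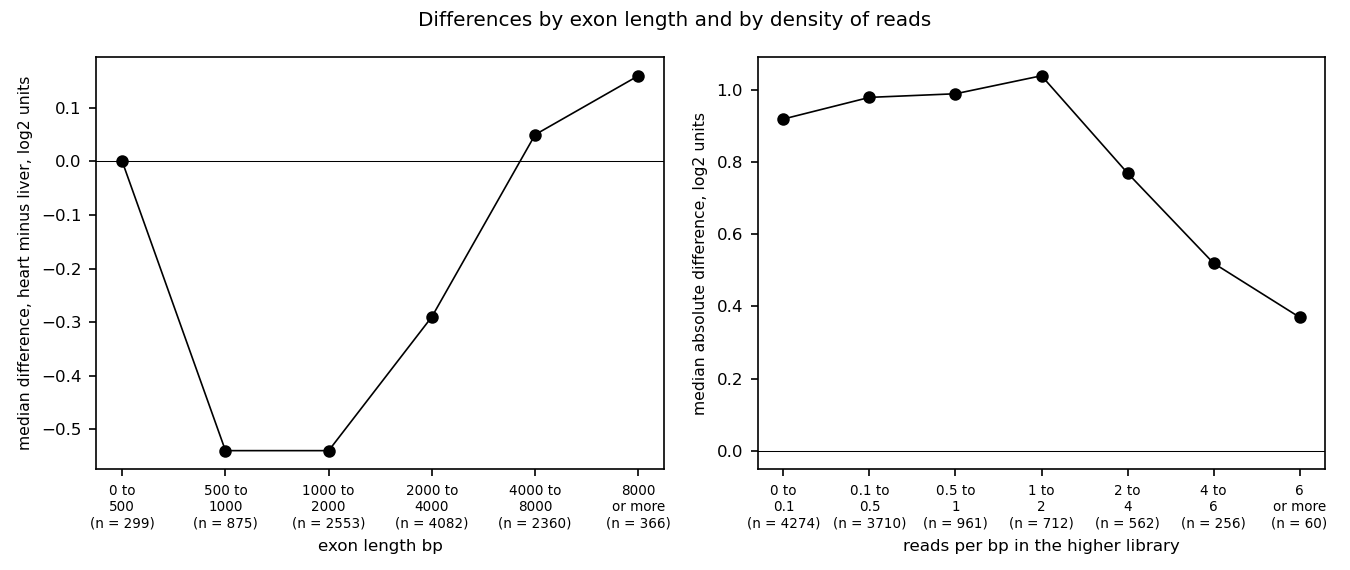
Median difference, heart minus liver, by exon length (left) and median absolute difference by reads per bp in the higher library (right), in log2(RPKM + 1) units, with the number of genes in each bin. The median runs from -0.54 to 0.16 over the bins from 500 bp upward, and the absolute difference drops to 0.37 in the densest bin.

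The label of both libraries as macrophages was checked with 20 pan-macrophage genes. None of them was past the fold, their median difference was 0.07, and their differences ran from -1.07 to 1.81. Adgre1, which encodes the sorted antigen F4/80, stood at 427 RPKM in heart and 375 in liver. Itgam, which encodes CD11b, stood at 93.7 and 27.9 RPKM, but 70% of its exon bases also belong to an overlapping gene. Csf1r, the CSF1 receptor, with 17.9% of its exon bases in an overlapping gene, stood at 215 and 196 RPKM. Of these 20 genes 16 had over 2 reads per bp, where the median absolute difference over all genes was lower. Of 25 genes known from Kupffer cells 15 were higher in the liver library and none in the heart (median -3.43). The remaining 10 include genes that the heart library held at nearly the same level: Cd163, the hemoglobin receptor, stood at 252 RPKM in heart and 243 in liver, and Folr2, a folate receptor, at 311 and 355.

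Resident cardiac and interstitial macrophage genes were divided. Of 27 compared, 10 were higher in the heart and 3 in the liver, with a median of 1.06. Lyve1, a hyaluronan receptor of vessel-associated macrophages, stood at 336 RPKM in heart and 15.1 in liver. Mgl2 and Clec10a, the galactose-type lectins CD301b and CD301a encoded side by side on chromosome 11, stood at 371 against 46.5 RPKM and at 123 against 26.6. Igf1 went the other way without passing the fold, at 68.8 RPKM in heart and 153 in liver. Timd4, a phosphatidylserine receptor of long-lived resident macrophages, stood at 148 and 339.6 RPKM (difference -1.20). Among monocyte genes 6 of 18 were higher in the heart and 2 in the liver. Ccr2, the receptor that brings monocytes into tissue, stood at 117 RPKM in heart and 54.2 in liver, and Plac8 at 129 and 337. Itgal, the integrin chain of LFA-1, was the monocyte gene with the lowest difference, at 5.67 RPKM in heart and 98.5 in liver.

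**Figure D3:**
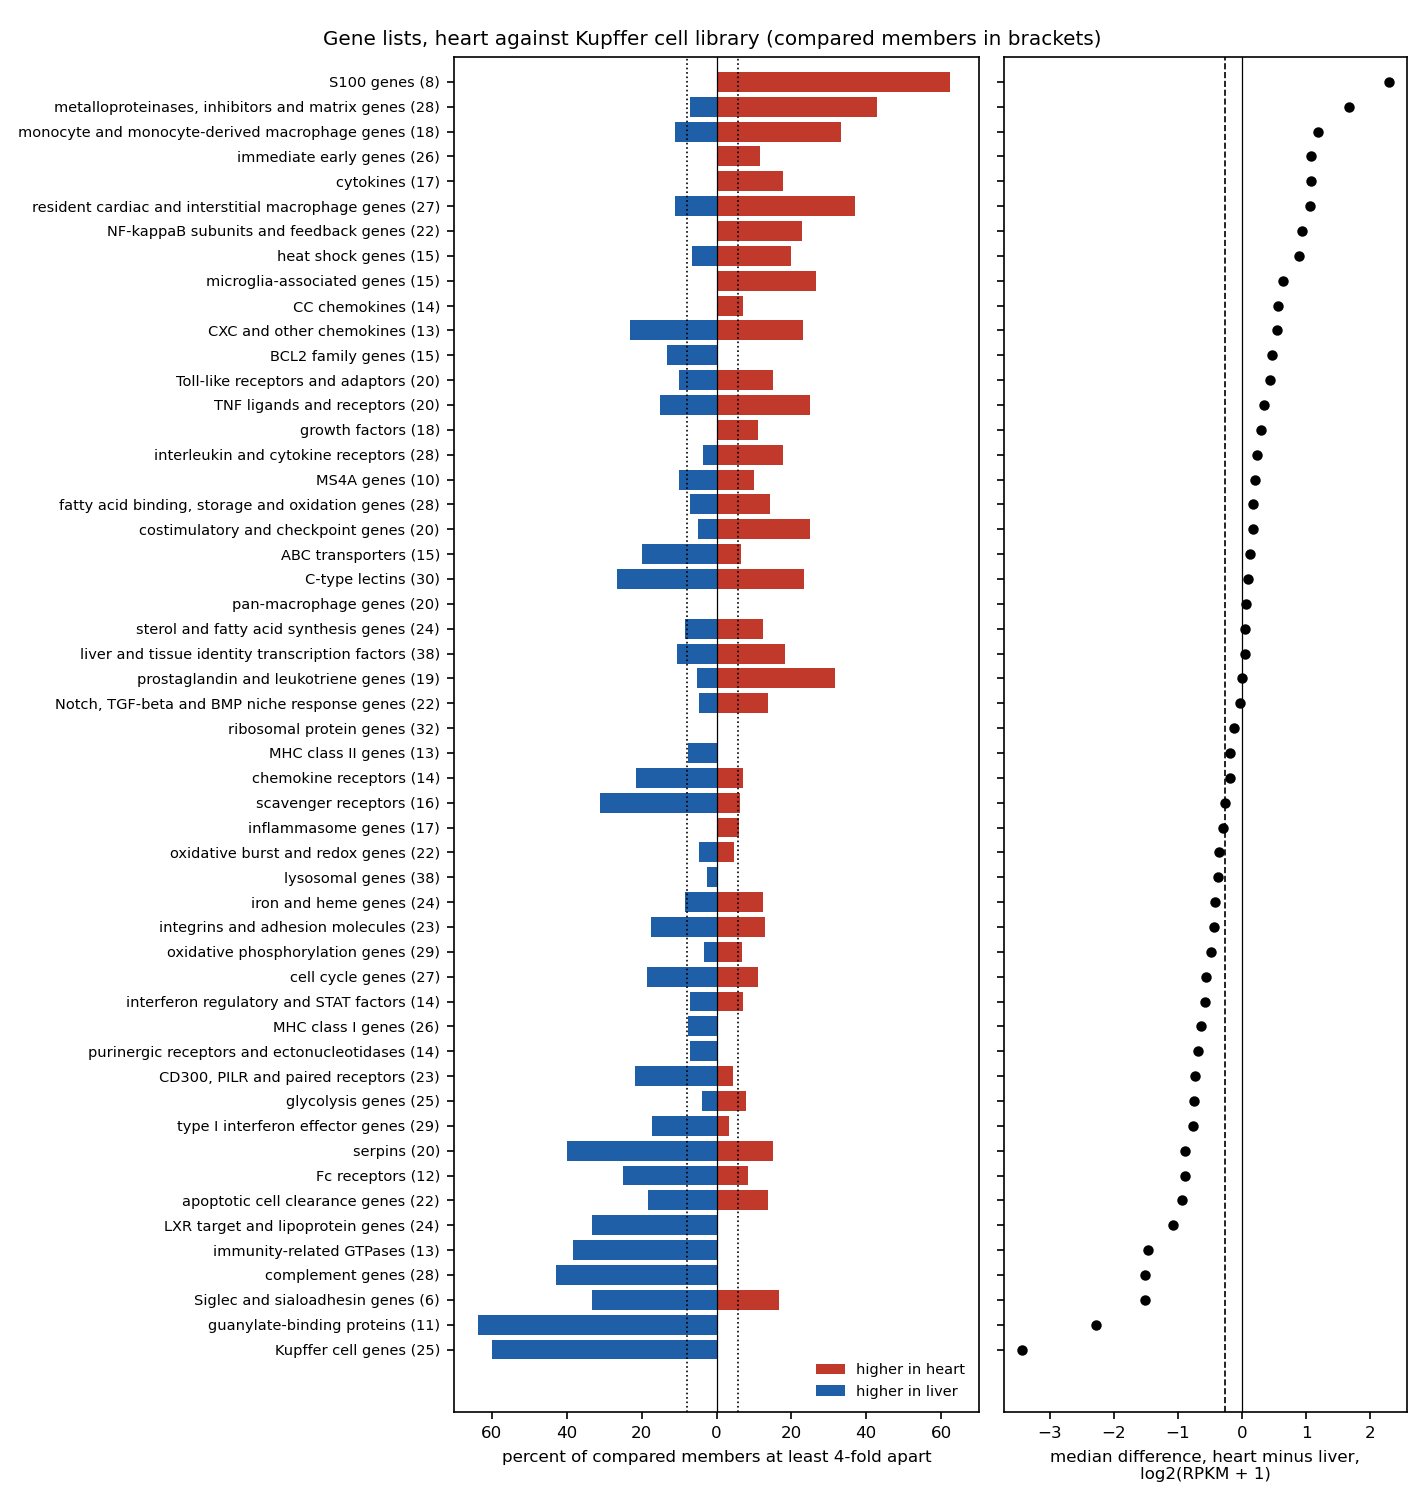
Share of the compared members of each list of macrophage genes or functions at least 4-fold higher in heart (red) or liver (blue), left, with dotted lines at the shares over all genes (5.81% and 7.77%), and the median difference in log2(RPKM + 1), right, with a dashed line at the median of all genes, -0.26. S100 genes stand at the top with a median of 2.29 and Kupffer cell genes at the bottom with -3.43.

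Transcription factors known from liver and other tissue macrophages had a median of 0.04, with 7 of 38 higher in the heart and 4 in the liver. Nr1h3, which encodes LXR alpha, stood at 1.07 RPKM in heart (30 reads), 104 in liver (3379 reads) and 2.78 in kidney, and was 97.3-fold lower in heart (interval 68 to 144). Its dimer partner Rxra stood at 0.605 RPKM in heart and 22.3 in liver. Id3, a helix-loop-helix inhibitor induced by BMP and required in Kupffer cells, stood at 7.29 and 73.1 RPKM, and its relative Id1 at 1.49 and 6.62. Irf7, the factor that amplifies type I interferon, stood at 2.62 RPKM in heart and 159 in liver. Nr1h3, Rxra, Id3 and Irf7 are all 4 of the members higher in the liver. Spic, the red pulp factor of heme-exposed macrophages, was near level, at 199 and 249 RPKM, as was Maf at 114 and 131.

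The 7 factors higher in the heart library were Rbpj, Bhlhe41, Runx3, Runx1, Klf10, Klf4 and Nr1d1. Rbpj, the DNA-binding partner of Notch, stood at 86.8 RPKM in heart (interval 84.8 to 88.9), 4.48 in liver (4.06 to 4.93) and 53.2 in kidney, a ratio of 19.4 (17.6 to 21.4). Other Notch genes differed by member. Hes1 stood at 37.1 and 41.7 RPKM, a difference of -0.16. Dtx4 stood at 10.1 and 1.89 RPKM, a difference of 1.95 that did not pass the fold. Runx3 and Runx1, factors of blood cell development, stood at 11.2 against 1.03 RPKM and at 15.2 against 2.41. Bhlhe41, a repressor known from self-renewing resident macrophages, stood at 10.7 and 0.02 RPKM and has 13.7% of its exon bases in an overlapping gene. Klf10 stood at 217 and 42.9 RPKM, Klf4 at 61.1 and 12.4, and the clock repressor Nr1d1 at 7.204 and 0.39. Mef2c, a factor known from microglia and muscle, stood at 138 RPKM in heart and 10.7 in liver. Smad3, a signal mediator of TGF-beta, stood at 6.09 RPKM against no read, and the TGF-beta receptor chain Tgfbr1 at 63.5 against 13.9. They and Rbpj were the 3 of 22 Notch, TGF-beta and BMP genes higher in heart (7 under TPM, 5 under the median ratio), and 1 was higher in liver. That list had a median of -0.03 (0.16 and 0.31 under the TPM and median ratio scalings), with 11 members above 0 and 11 below.

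LXR alpha switches on genes that export cholesterol and reshape fatty acids. Of 24 targets and lipoprotein genes 8 were higher in the liver and none in the heart, with a median of -1.07. Scd1, the desaturase that makes oleate, stood at 1.203 RPKM in heart, 62.2 in liver and no read in kidney, and its neighbour on chromosome 19, Scd2, at 1.85 and 13.01. Abcg1, a cholesterol exporter, stood at 11.6 RPKM in heart, 85.7 in liver and 59.6 in kidney. Apoc1 stood at 3.27 and 317 RPKM, and Apoe, a carrier of exported cholesterol, at 174 and 383 (difference -1.14, not past the fold). Smpdl3a, an LXR-induced phosphodiesterase, stood at 31.2 and 178 RPKM. Not every target was lower in the heart. Abca1, the other main cholesterol exporter, stood at 40.5 RPKM in heart and 28.8 in liver, and Mylip, a ubiquitin ligase, at 26.1 and 9.96.

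Of 24 genes of sterol and fatty acid synthesis 3 were higher in the heart (6 under TPM) and 2, the pair of desaturases, in the liver (median 0.05). The 3 were enzymes of the cholesterol pathway: Cyp51 at 5.75 RPKM in heart and 0.083 in liver, Sc5d at 29.5 and 3.92, and Idi1, which has 10.7% of its exon bases in an overlapping gene, at 8.41 and 0.564. Fatty acid binding proteins carry lipid inside the cell, and different members stood high in each library. Fabp7 and Fabp1 stood at 364 and 152 RPKM in liver with no read in heart. With a floor of 3 reads in heart they were 1325-fold and 357-fold lower there. Many hepatocyte genes, whose values stand below, were higher in liver too. Their part in the levels of Fabp1 and of Apoc1 above was not tested. Fabp4 stood at 139 RPKM in heart, 30.004 in liver and 3.85 in kidney, and Fabp3, the form of heart muscle, with 19.6% of its exon bases shared, at 5.56 RPKM against no read. Dgat1, which makes triglyceride, stood at 7.41 and 0.034 RPKM. Plin2, which coats lipid droplets, was near level at 256 and 269 RPKM, and so was the list, with a median of 0.18 and 4 of 28 genes higher in heart and 2 in liver.

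Complement proteins tag particles for uptake and pierce membranes. Of 28 complement genes 12 were higher in the liver and none in the heart, with a median of -1.51. Along the classical and alternative routes C4b stood at 1.36 RPKM in heart and 30.4 in liver, C2 at 6.799 and 87.8, and factor B (Cfb) at 4.18 and 95.9. C2 and Cfb lie next to each other on chromosome 17 and have 64.2% and 81.6% of their exon bases in an overlapping gene, and C4b is nearly identical to C4a, so which of each pair the reads came from is uncertain. Properdin (Cfp), which stabilises the alternative convertase, stood at 29.4 RPKM in heart, 315 in liver and 30.9 in kidney. Fcna, a ficolin that starts the lectin route, stood at 23.2, 406 and 0 RPKM in heart, liver and kidney. Vsig4, which binds C3b on particles in the sinusoid, stood at 41.5 and 455 RPKM. The terminal component C6 stood at 0.367 RPKM in heart and 296 in liver.

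Regulators at the cell surface were among the genes higher in liver. Cd59a, which blocks the membrane attack complex, stood at 0.558 RPKM in heart and 34.3 in liver, and Cd55, which dissolves convertases, at 0.495 and 14.04. The C1q chains were lower in heart without passing the fold, with C1qb at 283 and 475 RPKM. Receptors for the anaphylatoxins leaned to the heart, with C5ar1 at 385 RPKM in heart and 173 in liver (difference 1.15). Hepatocytes are the usual source of many complement proteins, and hepatocyte genes differed alongside. Of 25 on the hepatocyte list 20 were compared and 14 were higher in the liver, 19 had no read in the heart library and 2 none in the liver library. The list summed to 394 RPKM in heart and 884 in liver, of which Trf, also made by macrophages and with 76.7% of its exon bases shared, gave 388 and 384. Alb, the defining hepatocyte gene, stood at 64.3 RPKM in liver and had no read in heart. The part of such RNA in the complement differences was not tested, and in bulk libraries fewer cells of a type and less RNA per cell cannot be told apart.

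**Figure D4:**
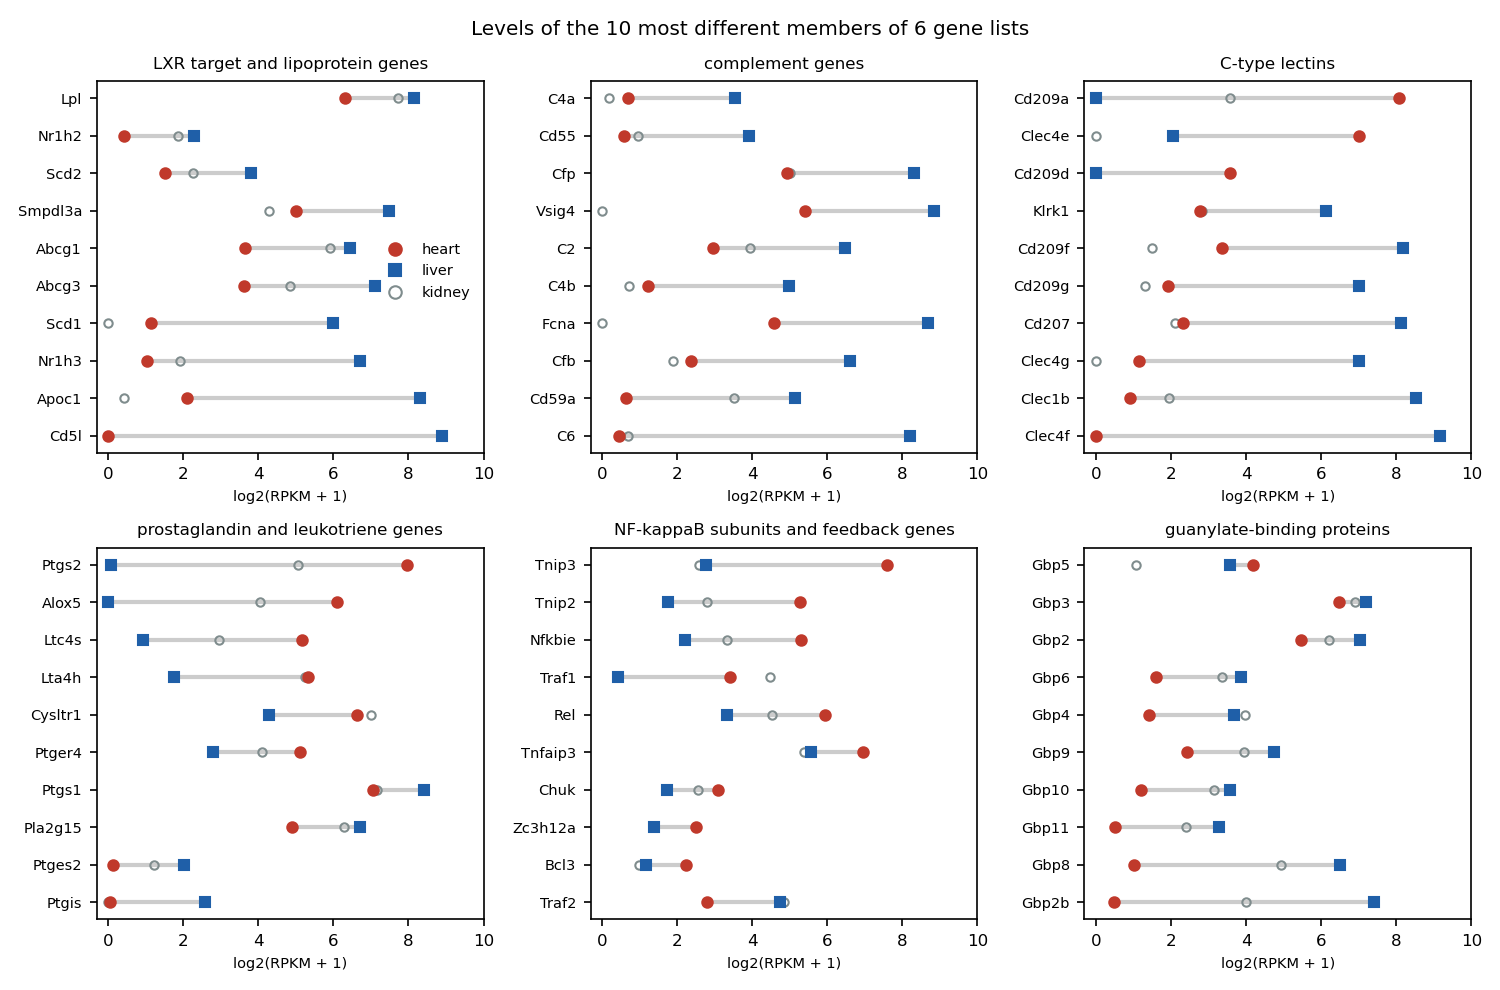
Levels as log2(RPKM + 1) in the heart (red circles), liver (blue squares) and kidney library (open circles) for the 10 members with the largest difference between heart and liver in 6 lists, 1 library per tissue. In the LXR and complement panels the liver lies to the right of the heart for all 10 members, while Alox5 and Cd209a have no read in the liver.

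C-type lectins recognise sugars on microbes and damaged cells, and each tissue held its own set. Of 30 compared 7 were higher in the heart and 8 in the liver, with a median of 0.10. In the heart, Cd209a, a member of the DC-SIGN family, stood at 270.1 RPKM against no read in liver and 10.9 in kidney. With a floor of 3 reads in liver it was 2223-fold higher in heart. Cd209g and Cd209f of the same family showed the reverse, at 2.77 against 128 RPKM and at 9.38 against 290.2. Clec4e and Clec4d, the receptors Mincle and MCL for mycobacterial glycolipid, stood at 127 against 3.14 RPKM and at 99.98 against 11.7, and the kidney library held 0 and 3.15. Clec5a, a receptor for viral glycans, stood at 92.9 and 9.92 RPKM. Cd207, or langerin, stood at 3.998 RPKM in heart and 277 in liver, and Clec4g at 1.24 and 129. Dectin-1 (Clec7a) and Dectin-2 (Clec4n) were near level, at 316 and 304 RPKM and at 335 and 305.

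Scavenger receptors take up modified lipoprotein and particles. Of 16 compared 5 were higher in the liver and 1 in the heart, and the median of -0.26 equalled that of all genes (0.08 under the median ratio scaling). Marco and Stab2 had no read in heart and stood at 86.97 and 57.5 RPKM in liver. Scarb1, the receptor for HDL, stood at 1.63 and 33.1 RPKM. Colec12 was the member higher in heart, at 11.6 RPKM against no read in liver and kidney. Mrc1, the mannose receptor, stood at 348 and 206 RPKM, and Cd68 at 332 and 411. Stab2 and Clec4g are also genes of sinusoidal endothelium, and that list differed alongside: 9 of its 20 compared members were higher in liver and 2 in heart (5 under TPM, 4 under the median ratio). It summed to 848 RPKM in heart and 548 in liver, with 6 of 24 at no read in heart and 1 in liver. Lyve1, Fcgr2b and Fabp4, which macrophages also express, make up most of the heart sum. Cdh5, the cadherin of endothelium, which Kupffer cells are also known to express, stood at 0.766 and 52.9 RPKM, and Pecam1 at 3.15 and 25.8. The part of endothelial RNA was not tested.

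Genes for the removal of dying cells differed by member. Of 22 clearance genes 3 were higher in heart and 4 in liver (2 under the median ratio), with a median of -0.93. All 3 heart genes encode secreted bridges between dying cell and phagocyte: Mfge8 at 14.1 RPKM in heart and 0.057 in liver, Thbs1 at 18.4 and 0.072, and Pros1, or protein S, at 43.7 and 8.12. Those higher in liver encode receptors and a crosslinking enzyme: Stab2, Lrp1 at 1.18 and 9.09 RPKM, Cd300lf at 18.6 and 94.8, and Tgm2, with 22.6% of its exon bases shared, at 4.01 and 52.97. The receptor kinase Axl stood at 32.2 and 103 RPKM (difference -1.65), and its ligand Gas6 at 5.799 and 1.32 (difference 1.55). Neither passed the fold.

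Fc receptors bind antibody, and 1 of 12 was higher in heart and 3 in liver. Fcrls, also a microglial gene, stood at 327 RPKM in heart and 4.85 in liver. Fcgr2b, the inhibitory receptor for IgG, stood at 326 and 87.4 RPKM, and the activating Fcgr4 at 138 and 334. They differed in opposite directions, and neither passed the fold. Fcrl1 and Fcer2a, both known from B cells, stood at 0.75 against 46.2 RPKM and at 0.124 against 22.5. B cell and plasma cell genes differed alongside, with 8 of 15 compared higher in liver and none in heart, a sum of 176 RPKM in heart and 553 in liver, and Jchain at no read in heart and 81.95 RPKM in liver. Their part was not tested. Of 23 genes of the CD300, PILR and related paired receptors 5 were higher in liver, among them Hcst, the adaptor DAP10, at 15.7 and 184 RPKM and Cd300e at 23.9 and 193. Only Trem1, which amplifies inflammation, was higher in heart, at 24.6 and 4.55 RPKM.

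Eicosanoids are lipid mediators made from arachidonic acid by cyclooxygenases and lipoxygenases. Of 19 prostaglandin and leukotriene genes 6 were higher in heart and 1 in liver, while the median of 0.00 moved to 0.18 and 0.34 under the TPM and median ratio scalings. Alox5, the 5-lipoxygenase that starts leukotriene synthesis, stood at 67.1 RPKM in heart (2729 reads), no read in liver and 15.6 in kidney, at least 1053-fold higher in heart. Its activating protein Alox5ap, with 14% of its exon bases in an overlapping gene, was near level, at 363 and 335 RPKM. The enzymes that follow 5-lipoxygenase were both higher in heart: Lta4h, which makes leukotriene B4, stood at 38.9 and 2.37 RPKM, and Ltc4s, which makes leukotriene C4 and has 29.4% of its exon bases in an overlapping gene, at 34.7 and 0.915. The receptor Cysltr1 stood at 97.5 and 18.4 RPKM. Of the cyclooxygenases, the inducible Ptgs2 stood at 249 RPKM in heart and 0.054 in liver, and the constitutive Ptgs1 at 132 and 339.7 (difference -1.36). The prostaglandin E2 receptor Ptger4 stood at 33.5 and 5.97 RPKM. Ptgis, the prostacyclin synthase, was the member higher in liver, at 0.04 and 4.95 RPKM.

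NF-kappaB is held in the cytoplasm by inhibitors that it induces in turn, and its subunits and feedback genes leaned to the heart: 5 of 22 were higher there, none in liver, with a median of 0.94. Tnip3 stood at 191 RPKM in heart and 5.89 in liver, Tnip2 at 37.5 and 2.38, and the inhibitor Nfkbie at 38.6 and 3.64. The subunit Rel stood at 60.4 and 9.01 RPKM, while the subunit Rela stood at 14.3 and 22.2 (difference -0.60). The best known feedback inhibitor, Nfkbia, was not past the fold, at 213 and 135 RPKM. Immediate early genes had a similar median of 1.08 with 3 of 26 higher in heart (6 under TPM and under the median ratio), where Ier3 stood at 210.4 against 34.9 RPKM, and none in liver. Fos stood at 216 and 135 RPKM, a difference of 0.67. Heat shock genes had a median of 0.89, with Dnajb4 at 68.3 against 9.29 RPKM and 3 of 15 higher in heart. Hspa4l was higher in liver, at 2.503 and 13.4 RPKM. Both groups are also known to respond to cell isolation, and their medians, like those of the NF-kappaB and cytokine genes, lay above that of all genes. Their part in those differences was not tested.

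Chemokines differed by member. Of 13 CXC and related chemokines 3 were higher in heart and 3 in liver. Cxcl1 stood at 393 RPKM in heart (interval 382 to 403), 14.6 in liver (12.8 to 16.6) and 81.8 in kidney. Cxcl3 stood at 186, 8.26 and 11.8 RPKM in the same order. Cxcl2, of the same cluster on chromosome 5, stood at 583, 314 and 348 RPKM. All 3 draw neutrophils through the same receptor, but Cxcl2 was abundant in both libraries and differed by 0.89, against 4.65 and 4.34 for the others. In heart Cxcl2 had 8.42 reads per bp and Cxcl1 5.68. The part of the limit on tags per position, which the intervals leave out, was not tested.

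The stretches before the starts of these 3 genes are shown because they share the letters of a kappa B site, the element bound by NF-kappaB, although their levels differ unequally. They come from RefSeq (GRCm38.p6), run 5′ to 3′ along the gene's strand, and capitals mark GGGA, any base and TTTCC in a row, or their reverse complement, searched on both strands in the 250 bases before each start. The stretch before Nfkbia, on the reverse strand, follows as an NF-kappaB target that was not past the fold.
Cxcl1: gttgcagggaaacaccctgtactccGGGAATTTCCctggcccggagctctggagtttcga
Cxcl2: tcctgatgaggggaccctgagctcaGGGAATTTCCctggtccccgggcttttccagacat
Cxcl3: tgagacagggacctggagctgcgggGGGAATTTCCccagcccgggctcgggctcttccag
Nfkbia: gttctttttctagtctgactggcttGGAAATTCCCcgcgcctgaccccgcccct
They lie at chr5:90891149-90891208, chr5:90903777-90903836, chr5:90786003-90786062 and chr12:55492648-55492701. The match begins 71 bases before the start of Cxcl1, 97 before Cxcl2, 73 before Cxcl3 and 29 before Nfkbia. These letters stand in 0.356% of all 32851 promoters, in 29 of 7251 promoters of the compared genes (0.40%), in 5 of 401 of genes higher in heart (1.25%) and in 1 of 552 of genes higher in liver (0.181%). A match is a description of the letters and not a site of binding.

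Of the other chemokines Cxcl13, which guides B cells, stood at 7.18 RPKM in heart and 348 in liver. Ppbp, a chemokine of platelets, stood at 54.3 RPKM against no read, and Pf4, the other platelet chemokine, which macrophages also express, at 365 and 249. Of the 14 erythroid and platelet genes 7 were compared, 1 was higher in heart and 2 in liver, 6 had no read in heart and 9 in liver, and the summed level was 471 and 543 RPKM. Their part in the level of Ppbp was not tested. Among 14 CC chemokines only Ccl9 was past the fold, at 275 and 32.7 RPKM, while Ccl4 stood at 614 and 432. Of their receptors, Ccr1 stood at 286 RPKM in heart, 14.1 in liver and 33.5 in kidney, 20.3-fold higher (18.8 to 22). Cxcr3, Cxcr6 and Ccr3 were the 3 receptors higher in liver (5 under TPM), with Cxcr3 at 0.56 and 21.5 RPKM. Receptors as a list had a median of -0.18 (0.07 under the median ratio scaling). Cxcr3 and Cxcr6 are known from T and NK cells, whose lists differed alongside: of T cell genes 4 of 9 compared were higher in liver and none in heart, with sums of 21.4 RPKM in heart and 122 in liver, and of NK and innate lymphoid genes 5 of 10 (3 under the median ratio), with sums of 211 and 278. Ccl5, which went the other way without passing the fold, made up 181 RPKM of the NK sum in heart and 125 in liver. Icos made up 62.6 RPKM of the T cell sum in liver and had no read in heart. Cd3e and Cd3g, defining T cell genes, had no read in heart and stood at 5.91 and 16.7 RPKM in liver. Ccr3 and the ribonuclease Ear1 stand on the list of eosinophil, mast cell and basophil genes, with 3 of 5 compared higher in liver. That list had sums of 103 and 375 RPKM, and 13 of 19 were without a read in the liver library. Ear2, which is also on the monocyte list, made up 87.1 and 268 RPKM of these sums and was not past the fold. The part of these cells was not tested.

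Cytokines had a median of 1.07 (0.4 without the minimum of 1 RPKM). Of 17 compared, 3 were higher in heart (7 under TPM, 6 under the median ratio) and none in liver. Csf2, or GM-CSF, stood at 110.4 RPKM against no read and has 12% of its exon bases in an overlapping gene. Osm, or oncostatin M, stood at 29.4 and 0.408 RPKM. Lifr, a receptor chain for cytokines of the interleukin 6 family, was higher in heart too, at 37.5 and 3.56 RPKM. Il12b stood at 12.1 and 0.622 RPKM. The classical inflammatory cytokines were abundant on both sides. Il1b stood at 498 and 379.8 RPKM, and Il6 at 297 and 293. Ifnb1, which encodes interferon beta, stood at 184 and 46.3 RPKM (difference 1.97), and Il1rn, the interleukin 1 receptor antagonist, at 271 and 69.96. Decoy receptors differed too: Il1r2, the decoy for interleukin 1, stood at 162 RPKM against no read in liver, and Il18bp, the soluble decoy for interleukin 18, stood at 5.91 RPKM in heart and 399 in liver. Il18 itself stood at 94.7 and 204 RPKM. Il1r2 is also a neutrophil gene, and of 17 neutrophil genes 5 were compared, 2 were higher in heart and none in liver, with sums of 183 and 36.4 RPKM. Il1r2 itself made up 162 RPKM of the heart sum, and Csf3r stood at 11.8 RPKM in heart and 31.6 in liver. Both libraries were sorted as Ly6G-, and Ly6G is an antigen of neutrophils. S100a8, a defining neutrophil gene, stood at 4.11 RPKM in heart and had no read in liver, and 9 of the 17 had no read in the heart library. Their part was not tested.

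Of 20 TNF ligands and receptors 5 were higher in heart and 3 in liver (5 in liver under TPM). Tnfsf9, or 4-1BB ligand, stood at 283 RPKM in heart, 0.488 in liver and 88.2 in kidney. Tnfsf12, or TWEAK, stood at 10.2 and 0.354 RPKM with 50.7% of its exon bases shared, and its receptor Tnfrsf12a at 11.2 against no read. Ltbr, the lymphotoxin receptor, stood at 1.56 RPKM in heart and 27.996 in liver. Tnf stood at 263 and 125 RPKM, a difference of 1.07.

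Toll-like receptors sense microbial products, and 3 of 20 genes were higher in heart and 2 in liver. Tlr2, for bacterial lipopeptide, stood at 294 RPKM in heart and 34.7 in liver, and Tlr5, for flagellin, at 14.4 and 0.037. Their adaptor Myd88 stood at 39.1 and 7.08 RPKM. Tlr3, which senses double-stranded RNA and does not use Myd88, stood at 2.26 and 13.6 RPKM, and Tlr12 at 1.05 and 15.5. Cd14, the co-receptor for endotoxin, was not past the fold, at 471 and 288 RPKM. Of 17 inflammasome genes only Casp4, the sensor of cytosolic endotoxin known in mouse as caspase 11, passed the fold, at 199.6 and 35.5 RPKM. Nlrp3 stood at 112 and 29.3 RPKM (difference 1.90) and Casp1 at 114 and 211 (difference -0.88). The inflammasome median of -0.30 became 0.01 under the median ratio scaling.

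Interferon-induced genes were compared in 3 families, and each had a median below the -0.26 of all genes. Of 29 type I interferon effector genes 5 were higher in liver and 1 in heart (median -0.76). Of 11 guanylate-binding proteins, GTPases that coat and break vacuoles holding microbes, 7 were higher in liver and none in heart (median -2.28). Of 13 immunity-related GTPases 5 were higher in liver and none in heart (median -1.46), but 3 under TPM, 1 under the median ratio and 0 with a pseudocount of 5 in place of 1. With that pseudocount 2 guanylate-binding proteins were past the fold, with a median of -1.35. Gbp2b stood at 0.394 RPKM in heart (16 reads), 169 in liver (7946 reads) and 14.98 in kidney, a ratio of 429 (264 to 751). Gbp8, Gbp9, Gbp4, Gbp10, Gbp6 and Gbp11 form an unbroken run of 7 genes higher in liver on chromosome 5 together with Abcg3, an ABC transporter at 11.4 and 138 RPKM. Gbp10 and Gbp6 have 50.8% and 66.3% of their exon bases in an overlapping gene, and the members resemble each other, so their single levels are uncertain. Gbp5 differed from its family, at 17.1 RPKM in heart and 10.9 in liver, a difference of 0.61.

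Among the immunity-related GTPases Tgtp2 stood at 13.7 and 69.5 RPKM, and Iigp1 at 21.5 and 94.5. Among effectors Dhx58, an RNA sensor, stood at 4.904 RPKM in heart and 73.9 in liver, and Oas1a, which makes the activator of RNase L, at 22.3 and 164. Ifit1, which binds foreign RNA caps, was the member higher in heart, at 135 RPKM in heart (interval 132 to 139), 27.1 in liver (25.6 to 28.7) and 21.8 in kidney. Ifit3, nearby on chromosome 19, stood at 31.5, 109 and 53.5 RPKM in the same order. Ifit1 was thus 5-fold higher in heart (4.69 to 5.32) and Ifit3 3.47-fold lower (3.23 to 3.74). Irf9 and Irf1 were closer to level than Irf7, at 52.7 and 84.3 RPKM and at 65.9 and 23.2. Irf4 stood at 2.38 RPKM in heart (161 reads) and 0.013 in liver (1 read), a ratio of 186 (33 to 7408) at levels that keep it under the fold.

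Stretches are shown before the starts of the guanylate-binding genes with the lowest and the highest difference, Gbp2b and Gbp5, and of the Ifit pair. All hold the letters of the interferon response element, while their levels differ in opposite directions. They come from RefSeq (GRCm38.p6) and run 5′ to 3′ along the gene's strand, and capitals mark GAAA, any 2 bases and GAAA in a row, or their reverse complement, on either strand in the 250 bases before the start.
Gbp2b: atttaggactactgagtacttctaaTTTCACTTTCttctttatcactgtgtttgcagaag
Gbp5: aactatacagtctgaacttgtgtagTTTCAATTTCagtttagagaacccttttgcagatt
Ifit1: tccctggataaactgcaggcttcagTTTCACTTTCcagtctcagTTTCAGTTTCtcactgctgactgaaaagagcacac
Ifit3: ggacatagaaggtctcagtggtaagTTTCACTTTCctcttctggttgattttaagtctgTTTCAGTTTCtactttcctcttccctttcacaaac
They lie at chr3:142594685-142594744, chr3:142496744-142496803, chr19:34640760-34640838 and chr19:34583348-34583441. The match nearest the 5′ end begins 137 bases before the start of Gbp2b, 165 before Gbp5, 104 before Ifit1 and 156 before Ifit3, and the Ifit genes hold 2 matches each. All 5 guanylate-binding genes with a matched promoter hold the element, as do 9 of 21 effector genes and 5 of 7 immunity-related GTPases. Of these 5 guanylate-binding genes only Gbp2b was past the fold, and no member of the run on chromosome 5 had a matched promoter. The element stands in 2.98% of all promoters, 3.10% of those of compared genes, 4.49% of those of genes higher in heart and 2.17% of those of genes higher in liver.

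Antigen presentation was closer to level. Of 13 MHC class II genes only H2-Oa was past the fold, at 2.46 RPKM in heart and 18.97 in liver, with 29.5% of its exon bases shared, and the median was -0.18 (0.16 under the median ratio scaling). Cd74, the invariant chain, stood at 814 and 764 RPKM. Ciita, the master regulator of class II, stood at 1.45 and 4.29 RPKM. Of 26 class I genes 2 were higher in liver and none in heart (median -0.64): H2-M2 at 1.73 and 33.1 RPKM, and Psmb9, a subunit of the immunoproteasome with 15.7% of its exon bases shared, at 23.2 and 122. Costimulatory genes leaned to the heart with 5 of 20 past the fold and 1 in liver. Icosl, the ligand of ICOS, stood at 144 and 16.9 RPKM, Pvr at 73.2 and 9.48, Slamf7 at 87.6 and 8.25, and Havcr2, or TIM-3, at 70.6 and 14.4. Pdcd1lg2, or PD-L2, stood at 0.081 RPKM in heart and 4.33 in liver, while PD-L1 (Cd274), with 10.9% of its exon bases shared, was near level, at 35.6 and 39.3.

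Matrix genes had more members higher in the heart than any other list, 12 of 28, with 2 higher in liver. Their median was 1.67 (0.84 without the minimum of 1 RPKM). The collagenase Mmp13 stood at 403 RPKM in heart and 84.8 in liver, and the elastase Mmp12 at 69.8 and 9.47. F13a1, which crosslinks fibrin, stood at 422 and 5.601 RPKM. Plaur, the urokinase receptor, stood at 70.7 and 8.57 RPKM. Adam19, with 11.2% of its exon bases shared, stood at 18.2 and 0.477 RPKM. On the liver side Adamdec1 stood at 0.577 and 121 RPKM, and Mmp27 at no read and 30.4. Fibroblast and mural genes differed alongside: of 20 on the list 13 were compared, 5 were higher in heart (8 under TPM) and 1 in liver, the sum was 210.1 RPKM in heart and 32.9 in liver, and 9 had no read in the liver library. Dcn and Lum, proteoglycans of fibroblasts that lie side by side on chromosome 10, stood at 125 against 8.15 RPKM and at 21.01 against no read. The fibroblast collagen gene Col1a2 stood at only 1.22 RPKM in heart. Of 20 cardiomyocyte genes 8 were compared and 3 were higher in heart (7 under TPM), led by Myl2 at 5.98 RPKM, and the sum was 39.3 RPKM in heart and 11.3 in liver. The part of fibroblast RNA was not tested, in the matrix differences or in other genes higher in heart such as Colec12 and Thbs1.

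S100 calcium-binding proteins gave the highest median of the lists of macrophage functions, 2.29 (2.01 with genes of no read set to the floor of 3 reads), with 5 of 8 higher in heart and none in liver. S100a10, partner of annexin A2, stood at 309.5 RPKM in heart, 29.7 in liver and 24.9 in kidney, and S100a6 at 138, 7.28 and 13.9. S100a11 stood at 215 and 45.5 RPKM. S100a4, with 60.6% of its exon bases shared, stood at 80.1 RPKM against no read. These 4 and S100a8 follow each other among the compared genes of chromosome 3, without another compared gene between them. S100a1 and S100a13 on the same chromosome were near level, at 174 and 264 RPKM and at 166 and 160.3. Among integrins Itgal and Icam2, which bind each other, were both higher in liver, with Icam2 at 0.73 and 17.98 RPKM. Flrt3, an adhesion ligand of latrophilins, stood at 36.4 RPKM in heart against no read in liver and kidney.

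Of 18 growth factors 2 were higher in heart (6 under TPM, 5 under the median ratio): Areg, or amphiregulin, at 81.3 RPKM against no read, and Gdf15, a stress hormone, at 7.56 and 0.166. The list's median of 0.30 became -0.12 with the other choice of transcript, the one with the highest RPKM. Bmp2 stood at 28.04 and 6.99 RPKM (difference 1.86), and Hbegf at 36.2 and 19.3. The stretch before Areg is shown because it holds the full cAMP response element, TGACGTCA, marked in capitals, a palindrome that reads the same on both strands.
Areg: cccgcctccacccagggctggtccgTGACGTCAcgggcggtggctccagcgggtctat
It lies at chr5:91139513-91139570 (RefSeq, GRCm38.p6), and the match begins 61 bases before the start. The element stands in 1.55% of all promoters, 2.98% of those of compared genes, 15 of 401 of genes higher in heart (3.74%) and 8 of 552 of genes higher in liver (1.45%).

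Serpins, inhibitors of proteases, were divided by branch, with 8 of 20 higher in liver and 3 in heart (6 under TPM). All 8 are of the antitrypsin and antichymotrypsin clusters, Serpina1 and Serpina3, and 9 such genes form an unbroken run on chromosome 12. Serpina3g, an intracellular form found in blood cells, stood at no read in heart, 46.1 RPKM in liver and 12.1 in kidney. Serpina1e stood at 103 RPKM in liver and no read in heart, and the Serpina1 copies are nearly identical, so which copy was read is uncertain. Hepatocyte genes, whose values stand above, differ alongside these. Mup genes of hepatocytes likewise form a run of 15 genes higher in liver on chromosome 4. Those higher in heart are outside these clusters, among them Serpinb8 at 89.2 and 0.39 RPKM and Serpinf1, or PEDF, at 45.02 RPKM against no read. Fibroblast genes, whose values stand above, differ alongside these, and their part was not tested.

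Glycolysis and respiration supply the phagocyte with energy. Of 25 glycolysis genes 2 were higher in heart and 1 in liver, with a median of -0.75. Pfkfb3, which makes the activator of phosphofructokinase, stood at 50.997 RPKM in heart, 0.463 in liver and 9.52 in kidney, and the glucose transporter Slc2a3 at 4.503 and 0.015. Hk3, a hexokinase of myeloid cells, stood at 2.31 and 22.2 RPKM. Enzymes of the main route such as Aldoa were lower in heart without passing the fold, at 92.01 and 247 RPKM. Oxidative phosphorylation had a median of -0.48, with 2 of 29 higher in heart and 1 in liver. Of complex III Uqcrq stood at 74.6 and 10.3 RPKM and Uqcrc1 at 21.3 and 4.33, and of complex IV Cox5a, with 41.7% of its exon bases shared, at 17.7 and 79.4. None of 32 ribosomal protein genes was past the fold (median -0.12, 0.22 under the median ratio scaling).

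Kupffer cells recycle iron from aged red cells. Of 24 iron and heme genes compared 3 were higher in heart and 2 in liver (median -0.42). Slc48a1, which exports heme from the phagosome, stood at 6.61 RPKM in heart and 47.4 in liver, while Hmox1, which breaks heme, and Slc40a1, the iron exporter ferroportin, were not past the fold, at 321 and 378 RPKM and at 128 and 247. The 3 genes higher in heart handle iron by oxidation state or import: Cp, or ceruloplasmin, a ferroxidase, at 51.002 and 1.299 RPKM, Steap4, a ferrireductase, at 45.6 against no read, and the importer Slc11a2 at 17.7 and 1.95. Of 38 lysosomal genes only the nuclease Dnase1l3 was past the fold, at 5.305 RPKM in heart and 91.4 in liver, and it also stands on the endothelial list. Ctsb, a cathepsin with 16.3% of its exon bases shared, stood at 351 and 440.5 RPKM. Among redox genes Srxn1, which repairs peroxiredoxin, stood at 37.2 and 2.06 RPKM, and Arg2, with 28.1% of its exon bases shared, at 9.39 and 65.3. Cybb, the catalytic subunit of the phagocyte oxidase, was near level at 374 and 358 RPKM.

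Kupffer cells renew by dividing in place. Of 27 cell cycle genes 5 were higher in liver and 3 in heart (median -0.56). The liver genes were Cdk1 at 3.397 RPKM in heart and 26.7 in liver, and 4 subunits of the MCM helicase that opens DNA, among them Mcm5 at 3.597 and 48.9 and Mcm3 at 7.04 and 54.1. Tk1, a thymidine kinase of S phase that is not on the list, stood at 0.814 RPKM in heart and 149.9 in liver. In heart Cdkn1a, the inhibitor p21, stood at 163 RPKM against 12.9, Ccnd2 at 73.4 against 8.26 and Ccnb2 at 7.82 against 0.82. Pcna was not past the fold, at 104 and 155 RPKM. Of 15 genes of the BCL2 family 2 were higher in liver, with the death promoter Bad at 0.905 and 18.3 RPKM and 21.6% of its exon bases shared, while Mcl1, which keeps cells alive, stood at 206 and 83.03.

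Of 10505 pairs of neighbouring compared genes 73 had both members higher in heart, 149 had both higher in liver and 68 had members past the fold in opposite directions. Of single genes 5.81% were higher in heart and 7.77% in liver. Runs of similar copies, such as the Mup and Serpina1 genes, add to the pairs higher in liver. Whether neighbours differ together beyond this was not tested. Besides the runs named above, 8 Ugt1a genes on chromosome 1 formed a run higher in heart, but they share exons, so the reads are counted in each. Smpdl3a lies beside Fabp7 and Pkib in a run of 3 genes higher in liver on chromosome 10. Cav1 and Cav2, which form caveolae, lie with Tes in a run of 3 genes higher in heart on chromosome 6.

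**Figure D5:**
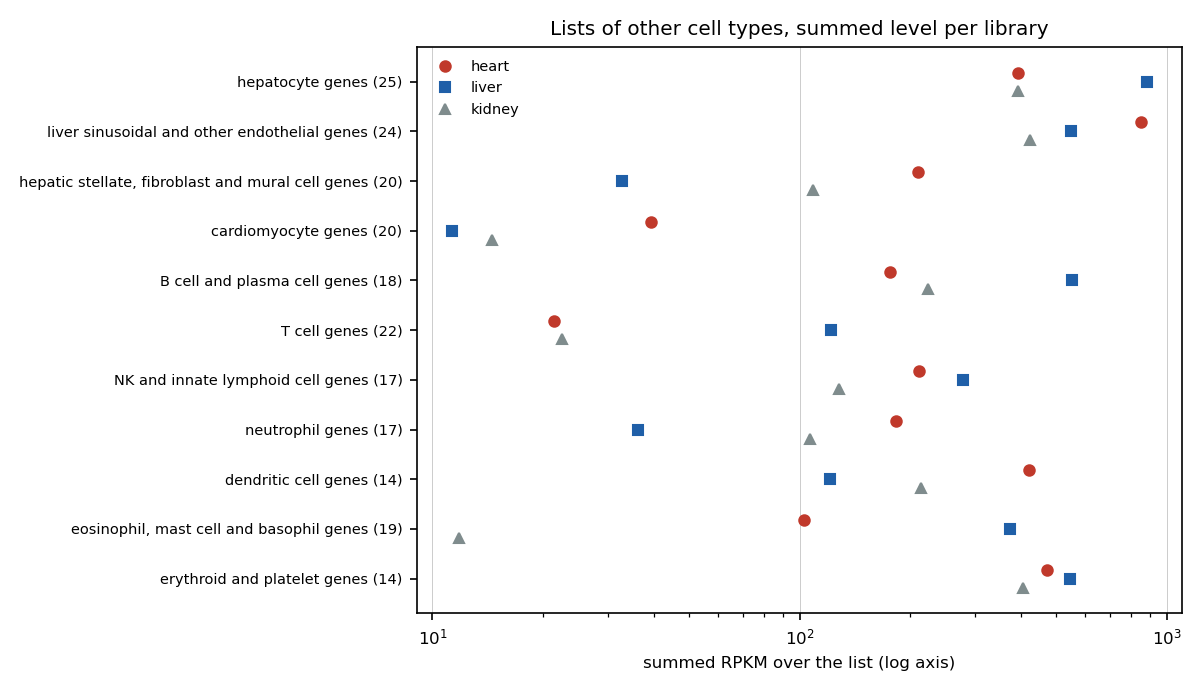
Summed RPKM over lists of genes of other cell types (log axis) in the heart, liver and kidney library, with the number of listed genes found in brackets. The B cell sum is 176 in heart and 553 in liver and the fibroblast sum 210.1 in heart and 32.9 in liver, and sums also hold genes that macrophages express, such as Trf in the hepatocyte list and Lyve1 in the endothelial list.

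Of the other lists for cells the sort could carry along, dendritic cell genes had 3 of 12 compared higher in heart and 1 in liver, and summed to 421 and 121 RPKM. Cd209a made up most of the heart sum, and Kmo, an enzyme of tryptophan breakdown, stood at 19.8 RPKM against no read in liver. Clec9a and Xcr1, which define the cross-presenting type, stood at 0.126 and 1.07 RPKM in heart and 1.29 and 1.62 in liver. Of the hemoglobin genes the beta copies were higher in liver, with Hbb-bs at 11.998 and 117 RPKM. The alpha copies were not past the fold, with Hba-a1 at 15.6 and 37.2 RPKM (difference -1.20). The erythroid gene Alas2, with 18.3% of its exon bases shared, stood at 1.09 RPKM in heart against no read in liver. The genes Il1r2, Ppbp and Cd209a appear above as members of macrophage families as well as of these lists, and how much of their level came from other cells was not tested.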

How the data were processed

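RNA of macrophages sorted from heart, liver and kidney was sequenced, with 1 library per tissue. The authors deposited RPKM values for 34711 RefSeq transcripts. Per the file headers HOMER's analyzeRepeats.pl made them: exon reads of either strand were counted, at most 3 tags per position, and each library was set to a total of 1000000. The column names say FPKM. CASAVA, STAR and mm10 are named in the submitters' processing notes. Whole reads were recovered from the steps of RPKM times exon length: among values of at most 500 reads, 14395 of 14395 in heart and 10952 of 10952 in liver were whole to within 0.1. These gave the depth and intervals, and the intervals take no account of the limit of 3 tags per position. The deposited RPKM were compared as log2(RPKM + 1), without a test, since each side has 1 library. A floor of 3 reads on 2000 bp is 0.104 RPKM in heart and 0.0896 in liver.

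Exon overlaps came from GENCODE M21 (GRCm38) with bedtools 2.31.1, for 10162 of the compared genes, and over 10% is named. Promoters matched 7251 of the 10535 compared genes, where the RefSeq start lay within 50 bp. Scripts ran in Python 3.11.15 with pandas 2.3.3, numpy 2.4.6 and scipy 1.17.1 and were tested on simulated data. The 64 gene lists hold 1316 symbols, of which 8 were not found: Selenop, Nectin2, Clec6a, Cd300c2, Lilrb4, Ms4a14, Flvcr1 and Acod1. Lists overlap. The comparison and the lists were chosen with earlier results of these data known. Named genes are the 20 with the largest difference in each direction among those of at least 10 RPKM in the higher library, and per list up to 6 with the largest absolute difference and 2 with the highest mean level. From lists of other cells the 3 highest in each library were taken. Not all genes so chosen are printed, and some results are not reported here. Chosen after their values were seen were Abca1, Adgre1, Axl, C4a, Cav1, Cav2, Ccnb2, Ccr2, Cd163, Cd209f, Cd274, Cd55, Cfp, Clec10a, Clec4d, Clec4e, Clec5a, Clec9a, Col1a2, Fcgr4, Fos, Gas6, Gbp5, Gbp6, Hbegf, Hes1, Id1, Ifit3, Il6, Klf10, Maf, Mgl2, Mmp12, Mylip, Nr1d1, Pkib, Plaur, Ptger4, Ptgs1, Rela, Runx1, Runx3, S100a13, Serpinf1, Slc40a1, Smpdl3a, Spic, Tes, Vsig4 and Xcr1.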

Additional observations from a re-analysis of the deposited data

How the results depend on the processing

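The counts of 612 genes higher in heart and 819 higher in liver moved most with the pseudocount and the scaling. A pseudocount of 0.1 gave 1413 and 1658, a pseudocount of 5 gave 194 and 271, and scaling to TPM, under which the pseudocount also weighs less, gave 1433 and 1259. Median ratio scaling gave 812 and 615. Of the genes higher in heart all 612 remained under TPM and under the median ratio, and of those higher in liver 792 and 615 remained. A minimum of 5 RPKM gave 513 and 714, the transcript with the highest RPKM 626 and 850, no minimum 612 and 819, leaving out genes of over 2 reads per bp 560 and 749, and leaving out genes that overlap another on the opposite strand 536 and 697.

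Of 430 genes the naming rule chose, 232 were past the fold. Of these 232 remained past it with a pseudocount of 0.1, 150 with 5, 228 under TPM, 218 under the median ratio and 231 with the other transcript, and none changed sign. Medians of 7 lists changed sign with the scaling, and their values stand beside them. Of the 64 lists' medians, 9 moved by over 1.5-fold with a pseudocount of 0.1, 14 with 5, 8 under TPM, 15 without the minimum level, 3 without opposite-strand overlaps, and none under the median ratio or with the other transcript. The Kupffer cell median of -3.43 became -4.78 with a pseudocount of 0.1 and -2.28 with 5, and the S100 median of 2.29 became 0.27 without the minimum. A pseudocount of 5 lowered the count higher in heart from 7 to 2 for identity transcription factors, from 6 to 2 for monocyte genes and from 5 to 1 for TNF ligands and receptors, and the count higher in liver from 14 to 8 for hepatocyte genes and from 8 to 5 for B cell genes. Depth limits low genes: ratios against no read used a floor of 3 reads, and the exact interval of no read reaches above this floor. No paired analysis was possible because each tissue has 1 library and the labels carry no replicate numbers. Leaving out a library was not possible for the same reason.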
